A study of Mus musculus with 14 samples.

Results

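The report covers 7 structured noncoding RNAs of the mouse, Rmrp, Rpph1, Rn7sk, Rn7s6, Vaultrc5, Rny1 and Rnu2-10, of the 50686 genes in the count table. They were chosen by RNA class and gene identifier, as RNAs of the kind that DIS3L2 is known to degrade, from results of these same libraries, so their levels below are a description and carry no test. Binding of DIS3L2 to them was not measured here. Each of the 7 identifiers was found in the table, each had reads in libraries of both lines, and each is kept in every count below.

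DIS3L2 is an exoribonuclease that degrades RNA from the 3' end and prefers RNAs with a tail of uridines, which the terminal uridylyl transferases TUT4 and TUT7 add. Its known substrates include precursors of let-7 and short structured RNAs that were not trimmed or folded correctly. Of the 7 RNAs, U2 is made by RNA polymerase II and the others by RNA polymerase III, whose transcripts end in a run of uridines. None of them carries the poly(A) tail of a finished mRNA, so a library made from polyadenylated RNA samples them only in part, and their counts here are low.

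Mouse embryonic stem cells (ESCs) that carry an Osr1-GFP reporter and stably express an shRNA against Dis3l2 (shDis3l2) were compared with the same reporter cells expressing an shRNA against LacZ (shLacZ), the control. Both lines were sequenced undifferentiated in LIF/2i (d0) and as embryoid bodies (EBs), formed in hanging drops with serum after LIF/2i removal, on days 2, 4, 6, 8, 10 and 12 (d2 to d12). This gave 14 polyA RNA libraries, 1 per line and day, so no value has a replicate and no difference on a single day has a p-value. Stable knockdown in 1 reporter line, with 1 control hairpin, is what the comparison rests on.

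Between 7178712 and 39888099 reads per library fell on genes. Levels are counts scaled to a library of 1e6 reads (CPM) with exact Poisson 95% intervals, and ratios carry Clopper-Pearson 95% intervals. Both cover counting error only. A count of 0 allows up to 3 counts, which lies between 0.0752 and 0.418 CPM depending on the library. At d0, Dis3l2 itself was at 28.7 CPM in shLacZ against 3.93 CPM in shDis3l2, which is 13.7% of the control (11.1 to 16.7%), and on the 6 EB days in order it stood at 28.1%, 32.1%, 55.2%, 97.1%, 94.98% and 75.4%. A lower level in shDis3l2 was not detectable at d8 and d10, where the intervals reached 113% and 115%. The 7 fixed markers of undifferentiated ESCs summed to 2923 CPM and 2077 CPM in the d0 libraries of shLacZ and shDis3l2, above the 55.4 to 1114 CPM of the EB libraries.

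The sequences that bear on the counts are shown here, from the GENCODE M21 transcripts (GRCm38), as DNA letters from 5' to 3'. In Rny1 (chr6:47788069-47788180, minus strand) and in the last 60 bases of Rn7sk (chr9:78175303-78175633, minus strand), the capitals mark the terminal run of T, 4 and 3 bases long, with which these RNA polymerase III transcripts end. In the first 100 bases of Rn7sk the capitals mark GATC, found 3 times in the RNA, at bases 13 to 16, 42 to 45 and 64 to 67. Hexim proteins contact this motif in the 5' hairpin. The capitals mark every copy by sequence alone, whether or not it lies in that hairpin. In Rnu2-10 (chr11:101658238-101658428, plus strand) they mark GTAGTA at bases 33 to 38, which pairs with the intron branch site, and ATTTTTG at bases 99 to 105, where the Sm proteins bind. Rmrp (chr4:43492788-43493058, minus strand) and the last 60 bases of Rpph1 (chr14:50807449-50807767, minus strand) end without a T in the annotation.
Rny1: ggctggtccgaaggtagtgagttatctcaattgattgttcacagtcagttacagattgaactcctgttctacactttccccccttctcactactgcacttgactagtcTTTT
Rn7sk, first 100 bases: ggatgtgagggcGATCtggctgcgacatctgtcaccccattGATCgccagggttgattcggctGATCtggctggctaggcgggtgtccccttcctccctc
Rn7sk, last 60 bases: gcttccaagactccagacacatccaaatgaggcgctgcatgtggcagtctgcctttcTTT
Rnu2-10: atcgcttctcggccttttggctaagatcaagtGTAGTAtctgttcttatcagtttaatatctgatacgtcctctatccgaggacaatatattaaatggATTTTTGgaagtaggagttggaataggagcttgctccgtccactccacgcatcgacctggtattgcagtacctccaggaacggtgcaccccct
Rmrp: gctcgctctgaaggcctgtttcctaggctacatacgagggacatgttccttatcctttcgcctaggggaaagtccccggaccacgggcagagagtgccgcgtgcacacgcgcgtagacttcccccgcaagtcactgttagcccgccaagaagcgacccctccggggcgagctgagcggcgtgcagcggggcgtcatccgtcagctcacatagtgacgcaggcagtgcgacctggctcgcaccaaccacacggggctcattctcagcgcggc
Rpph1, last 60 bases: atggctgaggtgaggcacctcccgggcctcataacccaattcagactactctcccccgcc

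The question put to the d0 libraries was whether these RNAs are more abundant in ESCs with less Dis3l2. Each of the 7 was higher in shDis3l2 than in shLacZ at d0, by 6.45-fold to 161-fold, with a median of 22.9-fold. Together they took 631 reads (15.8 CPM) in shLacZ and 5436 reads (205 CPM) in shDis3l2. All 7 met the fold criterion, a difference of at least 3-fold and 1 CPM or more in either library, at which 1.01% of the 14502 genes compared were called higher and 3.98% lower. As the RNAs were chosen on these libraries, nothing is read from that difference. The median of all compared genes lay at -0.31 on the log2 scale, at -0.12 after TMM scaling and at 0.08 with DESeq2 size factors, where the 7 RNAs had medians of 4.52, 4.71 and 4.91. Rpph1, with the smallest fold, was the closest to the threshold from inside, and none of the 7 lay outside it.

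**Figure D1:**
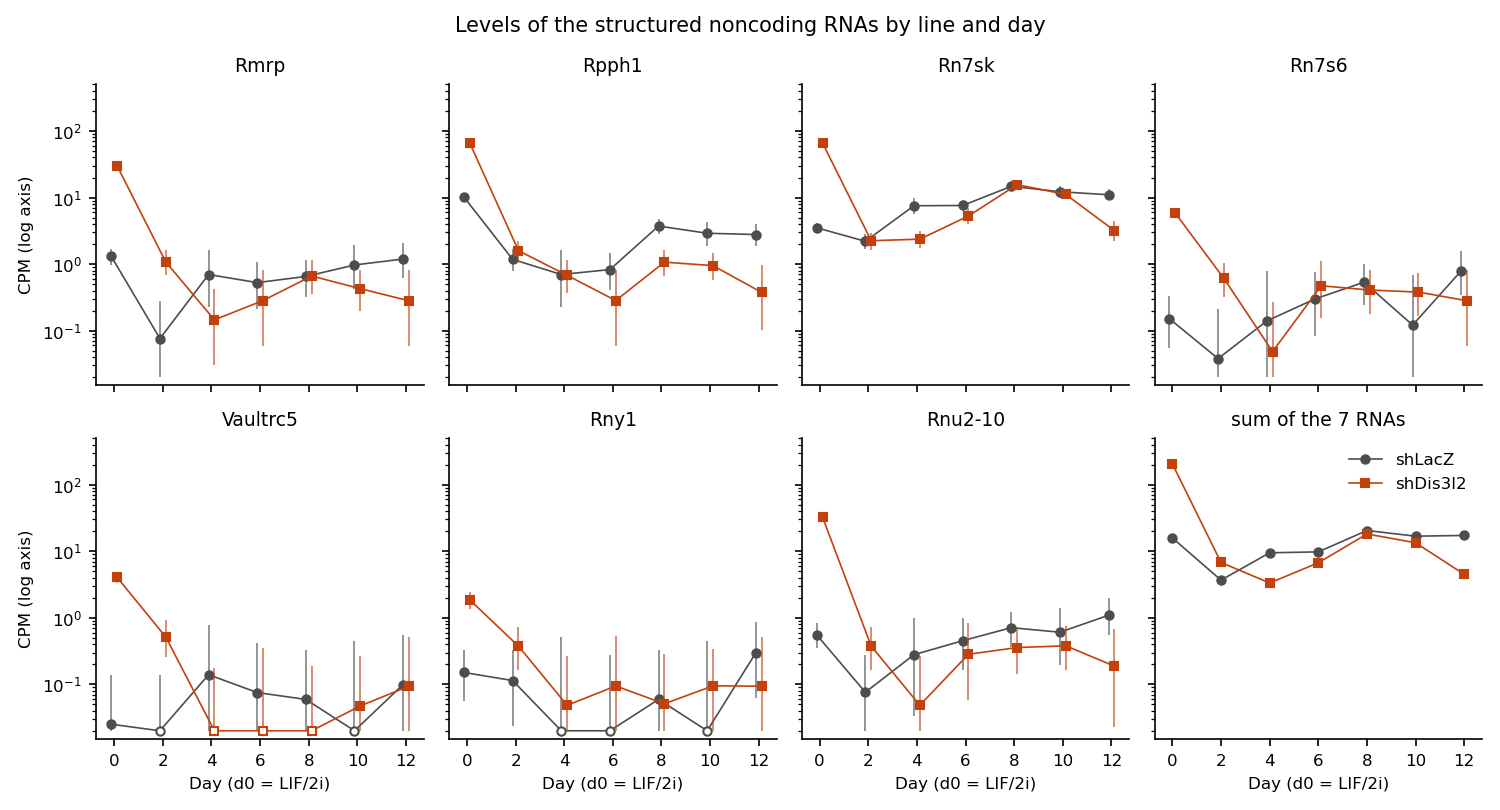
Each panel plots the CPM of 1 RNA (log axis) against the day, with the sum of the 7 in the last panel. Circles are shLacZ, squares are shDis3l2, vertical lines are exact Poisson 95% intervals cut at 0.02 CPM, and open symbols at the foot are libraries with 0 reads. At d0 every square lies above its circle, from 6.45-fold for Rpph1 to 161-fold for Vaultrc5, and at d12 the sum was 4.49 CPM in shDis3l2 and 17.3 CPM in shLacZ.

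Rmrp (ENSMUSG00000088088) is the RNA subunit of RNase MRP, the enzyme that cuts precursor ribosomal RNA. From d0 to d12 it was counted at 1.30, 0.0758, 0.697, 0.526, 0.651, 0.968 and 1.19 CPM in shLacZ. In shDis3l2 it was at 29.9, 1.07, 0.145, 0.283, 0.661, 0.426 and 0.281 CPM. The d0 library of shDis3l2 stood far above the other 13, and 93.6% of the line's Rmrp reads came from it. The ratio was 22.9 at d0 (17.3 to 31.0) and 14.2 at d2 (3.50 to 124, from 2 and 23 reads), and from d4 on no level of shDis3l2 was higher beyond the counting interval. Of the 271 bases of Rmrp, 124 lie within exons of Ccdc107 on the opposite strand. Ccdc107 was at 52.8 CPM and 62.4 CPM at d0, 1.18-fold higher in shDis3l2 (1.11 to 1.26). Whether the counting used strand is not given in the sources used here, so its part in the Rmrp counts was not tested.

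Rpph1 (ENSMUSG00000092837), 319 bases long, is the RNA subunit of RNase P, which cuts the 5' leader from precursor tRNAs. It was the most abundant of the 7 in shLacZ at d0, with 10.1 CPM, and then lay at 1.18, 0.697, 0.827, 3.73, 2.91 and 2.78 CPM. In shDis3l2 it was at 65.4 CPM at d0 and then at 1.59, 0.676, 0.283, 1.07, 0.947 and 0.375 CPM. Both lines were highest at d0, and the ratio of shDis3l2 to shLacZ went from 6.45 at d0 (5.79 to 7.21) to 0.287 at d8 (0.166 to 0.476), 0.326 at d10 (0.171 to 0.616) and 0.135 at d12 (0.0344 to 0.386). In GENCODE M21, 233 bases of Rpph1 lie in exons of Ccnb1ip1 on the same strand. Ccnb1ip1 was at 21.5 CPM in shLacZ against 11.3 CPM in shDis3l2 at d0, a ratio of 0.525 (0.458 to 0.599), so at d0 the 2 genes differed in opposite directions. On the later days both were lower in shDis3l2. Ccnb1ip1 was at 9.70 and 1.48 CPM at d8, 10.4 and 2.46 CPM at d10, and 5.65 and 2.81 CPM at d12, shLacZ first. Its part in the Rpph1 counts was not tested.

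Rn7sk (ENSMUSG00000065037), 331 bases long, is the 7SK RNA, which holds the elongation factor P-TEFb inactive together with Hexim1, Larp7 and Mepce. In shLacZ it was at 3.51, 2.20, 7.52, 7.59, 14.7, 12.2 and 11.01 CPM. In shDis3l2 it was at 65.9, 2.24, 2.37, 5.28, 15.6, 11.1 and 3.18 CPM. At d0 the ratio was 18.8 (15.8 to 22.5). At d2, d8 and d10 the lines lay within 1.10-fold of each other (ratios of 1.02, 1.06 and 0.910), each with an interval that holds 1, and shDis3l2 was lower at d4 with a ratio of 0.315 (0.209 to 0.472), at d6 with 0.695 (0.492 to 0.973) and at d12 with 0.289 (0.191 to 0.428). Rn7sk was the only one of the 7 whose shLacZ level was higher in most EB libraries than at d0, in 5 of 6, among the RNAs with more than 10 reads in the shLacZ library of d0.

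Rn7s6 (ENSMUSG00000092746, 291 bases, chr6:69516339-69516629, plus strand), of the family of 7SL, the RNA of the signal recognition particle, was at 0.150 CPM in shLacZ against 5.82 CPM in shDis3l2 at d0 (6 and 154 reads), a ratio of 38.7 (17.4 to 107). At d2 it had 1 read in shLacZ and 13 in shDis3l2, a ratio of 16.0 (2.41 to 681). On the later days it had between 1 and 9 reads per library in either line, and no ratio lay beyond its interval. Vaultrc5 (ENSMUSG00000065145, 143 bases, chr18:36801866-36802008, plus strand), the RNA of the vault particle, had 1 read in shLacZ at d0 and 107 in shDis3l2, a ratio of 161 whose interval runs from 28.3 to 6426 because it rests on that 1 read. At d2 it had 0 and 11 reads, at least 4.52-fold higher in shDis3l2 against the floor of 3 counts, and from d4 on no library held more than 1 read.

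Rny1 (ENSMUSG00000065701), a Y RNA that binds the Ro60 protein, had 6 reads (0.150 CPM) at d0 in shLacZ against 49 (1.85 CPM) in shDis3l2, a ratio of 12.3 (5.27 to 35.1). At d2 it had 3 and 8 reads, a ratio of 3.29 whose interval, from 0.789 to 19.2, includes 1, and from d4 to d12 it had at most 3 reads in any library. Rnu2-10 (ENSMUSG00000065944) is a gene of the U2 small nuclear RNA, which recognises the branch site in splicing. It was at 0.552 CPM in shLacZ against 32.4 CPM in shDis3l2 at d0, a ratio of 58.8 (38.6 to 94.4). In the EB libraries it lay between 0.0758 and 1.09 CPM in shLacZ and between 0.0483 and 0.379 CPM in shDis3l2, so that 96.7% of the line's reads for this gene came from d0.

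**Figure D2:**
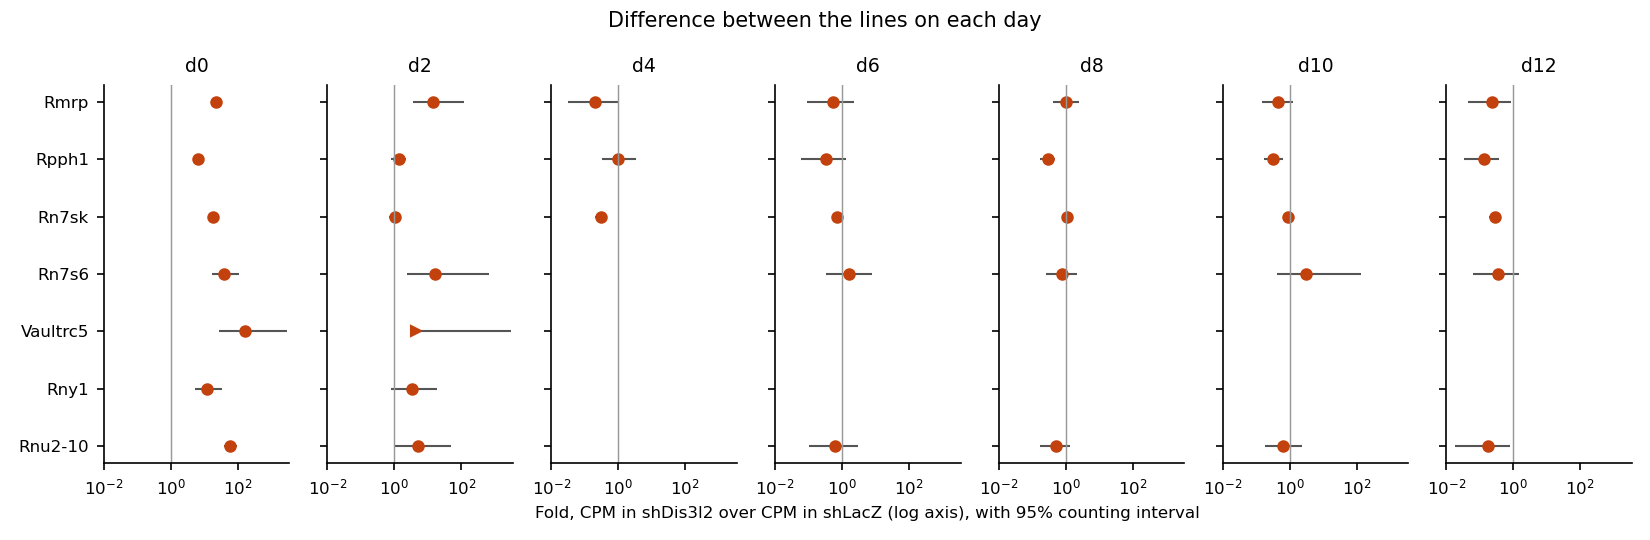
Each panel is 1 day and each row 1 RNA. Points are CPM in shDis3l2 over CPM in shLacZ (log axis), lines are 95% counting intervals cut at the axis end, the triangle is a lower bound, the vertical line is a ratio of 1, and rows without a point have 3 or fewer reads in both libraries. The 7 points of d0 lie above 1 with their intervals, 3 of d2 do, and at d12 the 5 points with enough reads lie below 1, 4 of them with their intervals.

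Per kilobase, Rpph1 and Rn7sk had the highest levels at d0 in both lines, and the order below them differed. In shDis3l2, Rpph1 had 205 CPM per kilobase, Rn7sk 199, Rnu2-10 169.9, Rmrp 110.4, Vaultrc5 28.3, Rn7s6 20.0 and Rny1 16.5. Rpph1 did not differ from Rn7sk beyond counting error, nor Vaultrc5 from Rn7s6, nor Rn7s6 from Rny1. In shLacZ the levels per kilobase were 31.75 for Rpph1, 10.6 for Rn7sk, 4.81 for Rmrp, 2.89 for Rnu2-10, 1.34 for Rny1, 0.517 for Rn7s6 and 0.175 for Vaultrc5, and from Rmrp down each overlapped the next in its interval. Vaultrc5 had the lowest level in shLacZ and lay above Rn7s6 and Rny1 in shDis3l2.

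The d0 difference thinned out at d2, when all 7 still had a higher CPM in shDis3l2 but only Rmrp, Rn7s6 and Vaultrc5 did so beyond the counting interval. Rmrp alone met the fold criterion there, 1 of the 3 RNAs with a CPM of at least 1 in a library, where 0.163% of all genes compared were called higher and 0.195% lower. With TMM scaling or DESeq2 size factors that count was 0, although the ratio stayed at 14.1 and 14.2, because the 1.07 CPM of Rmrp lies next to the minimum of 1 CPM. Rn7sk and Rpph1, the 2 with the most reads at d2, were at ratios of 1.02 (0.681 to 1.52) and 1.35 (0.806 to 2.27). Dis3l2 was still at 28.1% of the control on that day.

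From d4 on no RNA of the 7 met the criterion for a higher level in shDis3l2, on days when it called 0.429% (d4), 2.62% (d6), 5.11% (d8), 7.99% (d10) and 7.45% (d12) of all genes higher. Lower in shDis3l2 by the criterion were Rn7sk at d4 (1.76% of all genes lower), none at d6 (3.93%), Rpph1 at d8 (3.62%), Rpph1 at d10 (3.18%) and 4 RNAs at d12 (1.45%). The 4 at d12 were Rmrp, with 12 reads in shLacZ and 3 in shDis3l2 and a ratio of 0.236 (0.0427 to 0.875), Rpph1, Rn7sk and Rnu2-10, with 11 and 2 reads and a ratio of 0.172 (0.0185 to 0.787). All 7 had a lower CPM in shDis3l2 at d12, but not all by a measurable ratio. Vaultrc5 had 1 read in each library and Rny1 had 3 in shLacZ and 1 in shDis3l2, at or under the floor. The interval of Rn7s6, from 0.0605 to 1.48, includes 1. Rmrp and Rnu2-10 rest on 3 or fewer reads in shDis3l2, and 3 of the 4 were called with TMM scaling or size factors, while protein-coding totals kept the count at 4. Short RNAs outside the 7 were lower at d12 too. Of those at 1 CPM, the criterion called 2 of 3 other small nuclear RNAs and 2 of 2 ribosomal RNA genes lower. Their median folds were 0.139 and 0.119. A gene can pass the minimum of 1 CPM through shLacZ alone, which tilts it towards a lower call. The small nuclear and ribosomal RNA classes hold 1384 and 354 genes outside the 7. Of 2 other miscellaneous RNAs, 0 were called. With 1 library per line, the line and the library cannot be told apart at d12.

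Within each line, d0 was then set against the EB days. In shDis3l2 all 7 RNAs were higher at d0 than in each of the 6 EB libraries. Against d2 all 7 met the fold criterion, by which 12.3% of all genes were higher at d0 and 35.3% lower. The d0 library was 29.4-fold above d2 for Rn7sk (22.1 to 40.0), 41.2-fold for Rpph1 (29.3 to 59.6), 27.8-fold for Rmrp (18.4 to 44.2), 86.8-fold for Rnu2-10 (43.8 to 202), 9.58-fold for Rn7s6 (5.44 to 18.4), 7.86-fold for Vaultrc5 (4.22 to 16.2) and 4.95-fold for Rny1 (2.33 to 12.1). In shLacZ only Rmrp, 17.2-fold (4.53 to 146), and Rpph1, 8.62-fold (5.98 to 12.9), met it against d2, where 12.3% of all genes were higher at d0 and 28.1% lower. Ccdc107, which overlaps Rmrp, also fell over that step, from 52.8 to 4.21 CPM in shLacZ and from 62.4 to 4.49 CPM in shDis3l2. Ccnb1ip1, which overlaps Rpph1, rose from 21.5 to 64.1 CPM in shLacZ and from 11.3 to 73.3 CPM in shDis3l2. The part of either gene in these folds was not tested. In shLacZ, Rn7sk was also higher at d0 than at d2, beyond its counting interval but short of the fold criterion. From d4 on its shLacZ level lay above d0, and it was 4.197-fold higher at d8 than at d0. The sum of the 7 thus lay between 3.33 and 18.2 CPM in the EB libraries of shDis3l2, below its d0, and between 3.68 and 20.5 CPM in those of shLacZ, on both sides of its d0.

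The libraries of d0 differed from the others, and from each other, in the RNA classes they held. Processed pseudogenes took 200597 CPM in shLacZ against 210005 CPM in shDis3l2 at d0, and 75952 to 127063 CPM in the EB libraries, so stage and library make-up cannot be told apart. Between the d0 libraries, short RNAs outside the 7 were higher in shDis3l2 too. Of the genes that reached 1 CPM, the criterion called 14 of 15 other small nuclear RNAs higher, all 10 ribosomal RNA genes (8 of them named as 5S genes), both other miscellaneous RNAs and the 1 other ribozyme gene, Rprl3. Their median folds were 35.5, 29.2, 24.3 and 3.80. In the same order, these classes hold 1384, 354, 558 and 20 genes outside the 7. A gene that reaches 1 CPM in shDis3l2 alone is tilted towards a higher call, as Rprl3 was, at 0.552 CPM in shLacZ against 2.12 CPM in shDis3l2. These shares and medians therefore carry no test, and the same holds for the other classes compared at d0. In bulk RNA, fewer cells that express an RNA and less of it per cell cannot be told apart.

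Other classes moved less. Of 30 small nucleolar RNAs, 6 were called higher and 1 lower, with a median fold of 1.35. The 6 include Snord17 at a ratio of 69.3 (18.6 to 581), Snord118 at 26.4 (6.77 to 226) and Snord15a at 19.6 (7.21 to 74.6), with 2, 2 and 4 reads in shLacZ, which were named after their values were seen. Snord118 is the U8 RNA of ribosomal RNA processing. The replication-dependent histone genes, whose mRNAs mostly end in a stem loop in place of a poly(A) tail, had 10 of 27 called higher and 0 lower, with a median fold of 2.12. Of protein-coding genes, 71 of 12112 were called higher and 274 lower, with a median fold of 0.803, which is -0.32 on the log2 scale, where 90% of them lay between -1.28 and 0.50.

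Further measures moved with the line at d0. Gm42418, listed as a long noncoding gene, took 1891 CPM in shLacZ against 20882 CPM in shDis3l2. In the EB libraries it took 453 to 2513 CPM. Higher in shDis3l2 too were the mitochondrial ribosomal RNAs mt-Rnr1, 2.22-fold (2.15 to 2.30), and mt-Rnr2, 3.58-fold (3.48 to 3.68). The mitochondrial ribosomal RNAs summed to 322 CPM in shLacZ at d0, 971 CPM in shDis3l2 at d0 and 525 to 2028 CPM in the EB libraries. How much RNA without a long poly(A) tail each library took in was not measured, and its part in the d0 difference of the 7 RNAs was not tested. With 1 library per line at d0, the line and the library cannot be told apart.

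**Figure D3:**
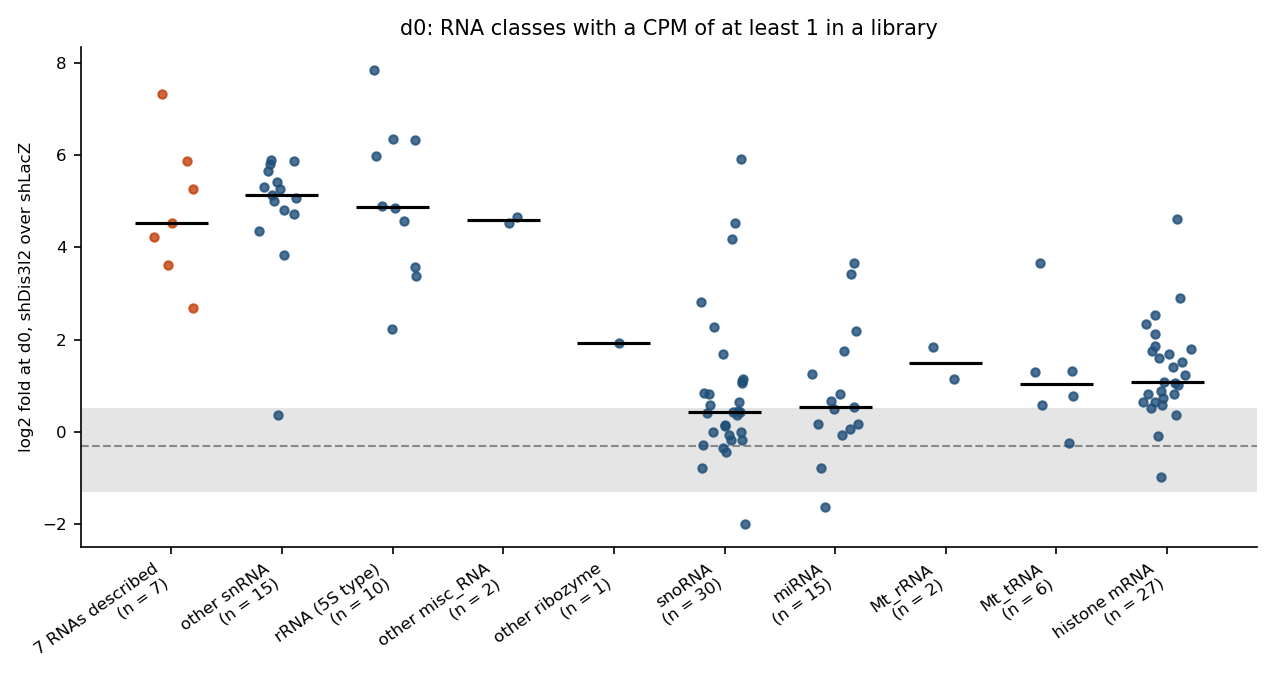
Each point is 1 gene at 1 CPM or more in a d0 library, placed by its log2 fold of shDis3l2 over shLacZ at d0 with a prior count of 0.25 for genes outside the 7, and spread sideways at random within its class. A gene can reach 1 CPM in shDis3l2 alone, which tilts its fold upwards. Black bars are class medians, the dashed line is the median of protein-coding genes (-0.32) and the grey band holds their 5th to 95th percentile. On the log2 scale the 7 RNAs (median 4.52) sit among the other small nuclear RNAs (5.15) and ribosomal RNAs (4.87), while small nucleolar RNAs (0.43) and histone mRNAs (1.09) lie lower.

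Several of the 7 share sequence with copies elsewhere in the genome, so a read can have more than 1 source and the split between copies is uncertain. Rnu2-10 has 12 annotated copies that are at least 95% identical, 3 of them identical over all 191 bases. The 13 genes together had 67 reads in shLacZ and 2277 in shDis3l2 at d0, a ratio of 51.2 (40.2 to 66.3), and Rnu2-10 held 32.8% and 37.7% of them. Gm23472, which is 99.5% identical to it, had 24 and 902 reads. Summed over the family, U2 was thus higher in shDis3l2 at d0 by about as much as Rnu2-10 alone, and it lay between 0.193 and 3.17 CPM in the EB libraries.

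Rn7sk has 9 relatives that are at least 80% identical and none at 95%. With them the ratio at d0 was 19.6 (16.7 to 23.2), and Rn7sk held 88.6% of the family's reads in shLacZ and 84.7% in shDis3l2. The relatives, Gm24447 and Gm26035, had 8 and 10 reads in shLacZ and 140 and 158 in shDis3l2. Rn7s6 with 3 relatives, among them Rn7s1 and Rn7s2, had a ratio of 46.2 (20.8 to 128). Rn7s1 itself had 0 reads in shLacZ and 22 in shDis3l2 at d0, and Rn7s2 0 and 7. How reads with several matches were treated is not given in the sources used here. Rny1 and Vaultrc5 have no copy above 90.9% identity, and the closest copy of Rny1 had 0 and 2 reads at d0.

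Among 21 other structured RNAs fixed as a list by symbol, 19 were in the table. At d0 only the U1 gene Rnu1b1 reached 1 CPM, with 0.0251 CPM in shLacZ against 1.93 CPM in shDis3l2 (1 and 51 reads), and it met the fold criterion. It passed the minimum through shDis3l2 alone, which tilts it towards a higher call, so nothing is read from that call. In the edgeR tests over many libraries only Rnu73b passed the filter on low counts, and it was called in neither direction. Rny3, the second Y RNA, was at 0.0752 CPM in shLacZ against 0.491 CPM in shDis3l2. Terc, the RNA of telomerase, had 0.125 CPM in shLacZ and 0 reads in shDis3l2, so its comparison rests on 5 reads.

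The proteins that bind, tail or transcribe these RNAs were next examined in 9 fixed lists of 76 genes, since an RNA can be present with its partners or without them. None of the 76 was at least 3-fold higher in shDis3l2 at d0 and 1 was at least 3-fold lower, beside 1.01% higher and 3.98% lower over all genes on that day, so neither count sets the list apart, and the folds lay between 0.209 and 1.49 with a median log2 fold of -0.23, beside -0.31 for all genes compared. The lower one was Tut4, the uridylyl transferase that tails RNAs for DIS3L2, at 6.37 CPM in shLacZ against 1.32 CPM in shDis3l2, and it was at 79.7 to 183 CPM in the EB libraries of both lines. Of the RNase MRP and RNase P proteins, the highest fold was that of Pop5, at 93.5 and 139 CPM, and the lowest that of Rpp38.

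Over all 7 days with day as a block, the edgeR quasi-likelihood test called 1 of the 76 genes higher and 1 lower in shDis3l2, where it called 1.91% of 20050 genes higher and 3.82% lower. Polr3f, a subunit of RNA polymerase III, was higher, with a log2 fold change of 0.39 (standard error 0.09, adjusted p = 0.0334). Sf3b3, a U2 snRNP protein of the SF3b complex, was lower, with -0.49 (standard error 0.09, adjusted p = 0.0189). Polr3f was higher in shDis3l2 on 6 of 7 days and Sf3b3 was lower on 7 of 7. None of the remaining 7 lists had a gene called. The median log2 fold change of the 76 was -0.03, beside -0.03 for all genes tested. Polr3f lost its call without d4, d6, d8, d10 or d12, with adjusted p from 0.0507 to 0.117, and Sf3b3 without d6, d8, d10 or d12, with 0.0607 to 0.0815. The days of 1 series stand in for replicates in this test, so it does not compare the lines across independent cultures. The test also counts d8 and d10, when Dis3l2 stood at 97.1% and 94.98% of the control and was not detectably lower.

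Between d0 and the EB days of both lines, the same lists changed widely, as did all genes. The edgeR test called 35 of the 76 higher at d0 and 25 lower, beside 27.1% of all genes higher and 31.5% lower. With library totals in place of TMM the 76 split into 18 higher and 29 lower, and all genes into 3643 higher and 8566 lower, where TMM gave 5430 and 6324, so the direction of this count depends on the scaling. Of the 11 RNase MRP and RNase P proteins, 9 were higher at d0 and 1 lower. Rpp25 (log2 fold change 3.72, adjusted p = 2.67e-07) and Rpp21 (3.08, adjusted p = 6.74e-09) changed most. Of the 12 U2 snRNP proteins, 8 were higher and 2 lower, led by Sf3b5 (2.22) and Snrpa1 (1.80), and of the 7 proteins of the 7SK particle and P-TEFb, 4 were higher and 2 lower, led by Hexim2 (1.84) and Mepce (1.26).

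The other lists split differently. Of 8 signal recognition particle proteins, 2 were higher at d0 and 4 lower, with Srp54c at -2.37 and Srp54a at -2.01, genes with near-identical copies whose reads may be split. Both Ro and La genes, Trove2 (-1.79) and Ssb (-1.08), were lower at d0, and of the 3 vault proteins Mvp was higher (1.58) and Parp4 lower (-1.94). Tut4 (-4.50, adjusted p = 1.37e-05) and Tut7 (-1.06) were lower at d0 and Tut1 was not called. Of 23 RNA polymerase III genes, 9 were higher and 8 lower, with Gtf3a at 2.16 and Bdp1 at -2.09, and of 7 factors of small nuclear RNA promoters, 2 were higher and 3 lower, with Snapc5 at 1.62 and Snapc2 at 1.53. Of these named genes, Mepce and Mvp were not called with library totals or in shLacZ alone, Ssb not in shLacZ alone and Tut7 not in shDis3l2 alone. The histone list had 14 of 25 higher at d0 and 0 lower. Only 2 libraries are of d0, 1 per line.

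**Figure D4:**
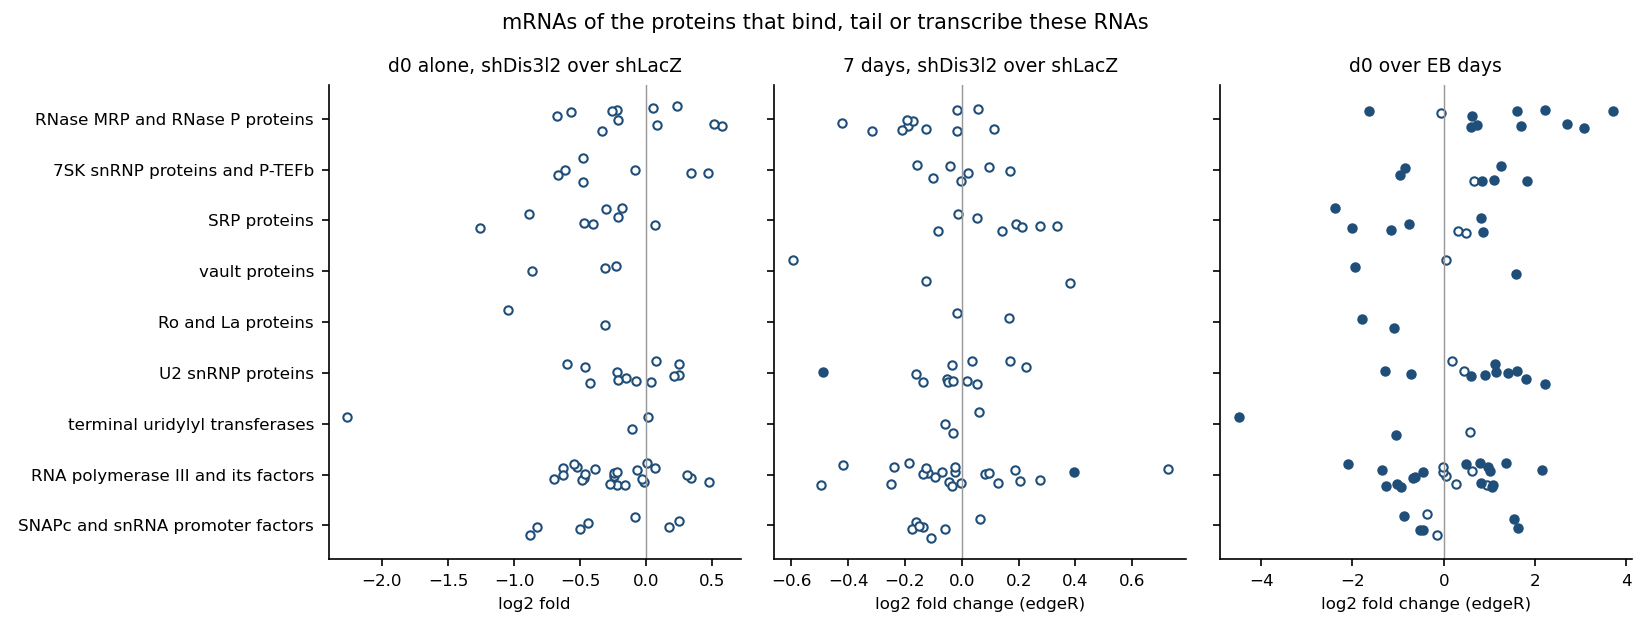
Each point is 1 gene of a list, placed by its log2 fold, for shDis3l2 over shLacZ at d0 alone (left), over the 7 days (centre) and for d0 over the EB days (right), and spread vertically at random. Filled points passed the edgeR test at an adjusted p under 0.05, which was not run for d0 alone. At left the 76 genes lie between -2.26 and 0.57, at the centre 2 points are filled, and at right 60 are.

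The genes closest in profile to the 7 RNAs over the 14 libraries included other short RNAs. Among 12432 genes outside the 7 with a mean CPM of at least 5, the 5 with the highest Pearson r to the mean profile of the 7, on log2(CPM + 0.5), were the small nuclear RNA gene Gm26232 (0.97), the 5S-type gene n-R5s103 (0.96), Gm42418 (0.94, listed as a long noncoding gene), the small nuclear RNA gene Gm23238 (0.93) and Gm24270 (0.93, listed as a microRNA gene). Gm26232 was the closest gene to Rmrp, Rn7s6, Vaultrc5 and Rnu2-10, n-R5s103 to Rny1, Gm23238 to Rn7sk and the protein-coding 1110008P14Rik to Rpph1, with r between 0.86 and 0.98. These correlations describe 14 libraries that share lines and days. Each of the 7 was highest in the d0 library of shDis3l2, and they were chosen on these libraries. The minimum mean CPM can be met largely through that library. There n-R5s103 had 167 CPM, against 2.06 CPM in shLacZ at d0. For these closest genes no r over the EB libraries alone is given, so a pattern shared beyond that library was not tested. Between Rmrp and Rnu2-10, r was 0.98 over 14 libraries and 0.83 over the 12 EB libraries, while between Rn7sk and Vaultrc5 it went from 0.59 to -0.32.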

How the data were processed

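RNA of 14 samples, 1 per line and day, was sequenced by the study as polyA RNA on a NextSeq. According to the paper, polyA RNA was isolated first, and the libraries then followed a TruSeq guide for total RNA. The authors aligned the reads with Subread 1.6.3 to Ensembl mouse release 88 (GRCm38) and counted them per gene with featureCounts 1.6.3, and deposited whole read counts per gene without normalization. Strand and multimapping settings are not given in the sources used here. A second deposited table, of authors' CPM for protein-coding genes, was not used, since it lists none of these RNAs. Columns named shm5 were taken as shDis3l2, the name that the study's supplementary tables give the matching columns.

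The 7 RNAs and all gene lists were chosen with earlier results of these data known. CPM used library totals over all genes (7178712 to 39888099 reads). Calls used a prior count of 0.25, a fold of 3 and a minimum of 1 CPM. Other library sizes were rescaled to the mean library total, so the 1 CPM minimum moves slightly with the scaling. Floors were 3 counts. The libraries carry no stated molecular identifiers, so reads may be PCR copies and intervals cover counting error only. GENCODE M21 gave gene types for 50462 of 50686 genes and the sequences. Its coordinates for the 7 RNAs equal those in the count table.

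Lists and the background were tested with edgeR 4.0.16 (R 4.3.3, quasi-likelihood, TMM, filterByExpr, Benjamini-Hochberg adjusted p under 0.05), for line with day as a block (6 residual degrees of freedom) and for d0 against EB days with line as a covariate (11). DESeq2 1.42.0, library totals, no filter on low counts and leaving out each day were alternatives. On simulated counts with 200 planted 4-fold changes among 17615 genes, edgeR recovered 198 with 14 other calls for line and 199 with 11 for stage. Apart from the planted changes, each simulated gene had the same mean on all days and a fixed dispersion. The real days change over time, so this recovery does not measure how the tests perform on these libraries. Genes named are the 7 RNAs, the 2 most changed called genes of each list, the 5 genes closest in profile, the closest to each RNA, and Dis3l2. Others were named after their values were seen. Python 3.11.15 was used for the rest. Sequences of the 7SL family are not reported here.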

Additional observations from a re-analysis of the deposited data

How the results depend on the processing

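All 7 RNAs kept a higher level in shDis3l2 at d0, at least 3-fold, under the 3 other scalings, with a 2-fold criterion and without a minimum CPM, and in shDis3l2 all 7 kept the higher level at d0 against each EB day alone. A 2-fold criterion or no minimum CPM could only keep RNAs already called. Rpph1, with the smallest d0 ratio, went from 6.45 to at most 8.46 under the other scalings. As the RNAs were chosen on these libraries, none of this carries a test. Most other counts rest on few reads. At d2 the number of RNAs called higher went from 1 to 0 with TMM-scaled library sizes and with DESeq2 size factors and to 5 without a minimum CPM. At d4 the number lower went from 1 to 0 with TMM-scaled sizes and to 4 without a minimum CPM, where 1 was higher. Without that minimum 1 was higher and 1 lower at d6, 2 were lower at d8 and 2 higher at d10. Against single EB days in shLacZ, the 1 RNA higher at d0 became 2 against d2 and 0 against d8, and 1 was lower at d0 against d8, d10 and d12 each. Of 108 values of single RNAs under other scalings, 105 stayed within their counting interval, and none of the called ones changed direction.

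For the line, edgeR called 382 genes higher and 765 lower. DESeq2 gave 1073 and 1449, no filter on low counts 847 and 1246. Leaving out 1 day gave between 1 and 841 higher and between 7 and 1348 lower. The lowest were without d10 (1 and 7), d12 (2 and 10), d8 (4 and 9) and d6 (31 and 71), and the highest without d0. Among the partner lists, library totals gave 3 lower, DESeq2 5 higher and 4 lower, no filter 2 lower, and leaving out 1 day 0 to 7 higher and 0 to 4 lower. For d0 against EB days, the lists gave 18 higher with library totals. In shLacZ alone 3766 genes and 15 of the lists were lower, and in shDis3l2 alone 3482 genes were higher and 3480 lower, with 23 and 16 of the lists. The causes were not tested. The line test already pairs the lines by day, and the labels number no replicates that could form another block.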

Other observations

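Of 15 genes listed as microRNA genes that reached 1 CPM at d0, 4 were at least 3-fold higher in shDis3l2 and 1 was lower. Gm24270 was at 10.4 CPM in shLacZ against 133 CPM in shDis3l2, Mir6236 at 71.0 and 321 CPM, and Gm23935 at 1.15 and 12.4 CPM. In the same order of lines, the genes of the ESC microRNA cluster lay, Mir293 at 2.48 and 0.793 CPM, Mir294 at 4.11 and 5.93 CPM and Mir295 at 8.45 and 13.4 CPM. These genes were named after their values were seen. Mature microRNAs were not measured.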
